A study of Danio rerio with 4 samples.

Results

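Mitochondrial ribosomal proteins build the mitoribosome, the ribosome inside mitochondria. They are encoded in the nucleus, made in the cytosol and imported, and they assemble there with rRNAs transcribed from the mitochondrial genome. The mitoribosome translates only the mRNAs of that genome, which encode core subunits of the respiratory chain and of ATP synthase, so a tissue with a high respiratory demand such as liver needs both the nuclear-encoded ribosomal proteins and the mitochondrial transcripts. Its small subunit decodes the mRNA and its large subunit joins the amino acids, and each contains proteins with a counterpart in bacterial ribosomes as well as proteins that are found only in mitoribosomes.

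The genes described here are those whose symbol starts with mrpl (large subunit) or mrps (small subunit) followed by a digit. They numbered 74 of the 16405 genes listed, 46 of the large and 28 of the small subunit, and the rule uses the symbol alone, although it was set with earlier results of these data known. They lay on 22 of the 25 nuclear chromosomes, with 7 on chromosome 19 as the highest number. In the RefSeq gene order of zebrafish assembly GRCz12tu, 73 of the 74 were found by symbol. Among these, only mrps11 and mrpl46 were direct neighbours among protein-coding genes. The symbol gives the place of a protein in the ribosome with 3 exceptions in human ribosome structures, where mrps18a and mrps30 belong to the large subunit and mrps36 is a component of the 2-oxoglutarate dehydrogenase complex.

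Livers were dissected from fasted zebrafish larvae at 6 days post fertilization, and 2 libraries from wild-type (WT) larvae (replicates 1 and 4) were set against 2 libraries from pex5 KO larvae (replicates 1 and 2). The pex5 KO larvae are homozygous for a mutation in pex5 that was made by CRISPR genome editing, and pex5 encodes the receptor that carries matrix proteins into peroxisomes. All larvae were fasted and no fed library was analysed here, so the comparison asks how the genotypes differed under fasting. The number of livers behind a library is not given in the sources used here, and nothing in them says that libraries came from separate clutches, so every p-value measures only the spread between these samples. CEL-Seq2, the method used, primes polyadenylated RNA at its tail and tags each molecule it captures with a random barcode (a UMI). The count of a gene therefore does not grow with the length of its transcript. Capture can still differ between genes, so levels of different genes are compared only as counts. The deposited values are log2(TMM + 1), where TMM is a count scaled by sequencing depth with a trimmed mean of M-values. After the logarithm was undone, 100% of the values were whole multiples of a fixed step, and the step gave 1217737 to 1425834 deduplicated reads per library, with 0.691 to 0.785 TMM per read.

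The 14 hepatocyte markers took 25.2% to 31.6% of the nuclear reads of a library, with summed levels between 151228 and 162810 TMM in WT and between 200245 and 210346 TMM in pex5 KO. The marker apoa2 alone stood at 67534 and 71063 TMM in WT and 123993 and 118820 TMM in pex5 KO. Of the 14 markers, 6 had a higher and 8 a lower mean in pex5 KO, with a median difference of -0.03 on the log2(TMM + 1) scale. Markers of neighbouring tissues were present in unequal amounts. The 10 heart muscle markers summed to 228 and 302 TMM in WT against 28.6 and 95.4 TMM in pex5 KO, where cmlc1 had 0 TMM in replicate 1. Among them nppal and myh6 overlapped between genotypes, and both were highest in pex5 KO replicate 2. There nppal had the highest level of the 10, while it had 0 TMM in WT replicate 4 and pex5 KO replicate 1. The 9 skeletal muscle markers listed, of 10 sought, summed to 226 TMM in WT replicate 1, 1649 TMM in WT replicate 4 and 574 and 702 TMM in pex5 KO. The 10 exocrine pancreas markers listed, of 11, summed to 1071, 2756, 1822 and 1259 TMM in the same order. The 7 intestine markers summed to 717 and 995 TMM in WT and 2485 and 1945 TMM in pex5 KO. Most of this was apoa4b.1, at 704 and 961 TMM in WT and 2182 and 1937 TMM in pex5 KO. The markers vil1, slc15a1b, anpepb, cdx1b and fabp2 were highest in pex5 KO replicate 1 but below the higher WT library in pex5 KO replicate 2. For vil1 the values were 2.84 and 14.9 TMM in WT and 207 and 1.38 TMM in pex5 KO, and fabp6 had only 1 read, in WT replicate 4. The 8 erythrocyte markers summed to 811 and 404 TMM in WT against 1473 and 1161 TMM in pex5 KO. Among them hbbe3 had only 1 read, in WT replicate 4, and alas2 only 1 read, in pex5 KO replicate 2. The 6 endothelium and macrophage markers listed, of 7, summed to between 47.3 and 55.3 TMM in all 4, with ptprc at 0 in both pex5 KO libraries and lcp1 at 0 in both WT libraries. The part of these tissues in the results below was not tested. Over the 3349 genes whose mean reached 10 TMM, WT replicate 1 resembled pex5 KO replicate 2 (Pearson's r = 0.93 across genes, which are not independent replicates) more than it resembled WT replicate 4 (r = 0.83). WT replicate 4 resembled pex5 KO replicate 1 most (r = 0.92), with r = 0.88 for the pair of pex5 KO libraries. The closest pairs thus crossed the genotypes. The transcript of pex5 was not analysed here and gave no check of the labels.

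Transcripts of the mitochondrial ribosomal proteins were rare, and 73 of the 74 genes had at least 1 read. The summed level of all 74 was 1001 TMM in WT replicate 1, 1264 TMM in WT replicate 4, 1190 TMM in pex5 KO replicate 1 and 1184 TMM in pex5 KO replicate 2. The pex5 KO libraries thus lay between the WT libraries, and the WT libraries differed from each other 1.26-fold while the genotype means, 1132 ± 185 TMM in WT and 1187 ± 3.97 TMM in pex5 KO (SD, n = 2 each), differed 1.05-fold. As a share of the reads from the nuclear genome, the family took 0.168% in WT replicate 1 (95% exact Clopper-Pearson interval 0.159% to 0.177%) and 0.210% in WT replicate 4 (0.200% to 0.221%). The shares were 0.179% (0.170% to 0.188%) and 0.183% (0.174% to 0.192%) in pex5 KO replicates 1 and 2, again between those of the WT libraries. These intervals cover counting error only, and in whole-liver RNA fewer cells of a type cannot be told apart from less RNA per cell. The same range of levels is shown gene by gene in the plot of all 74 genes by library.

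**Figure D1:**
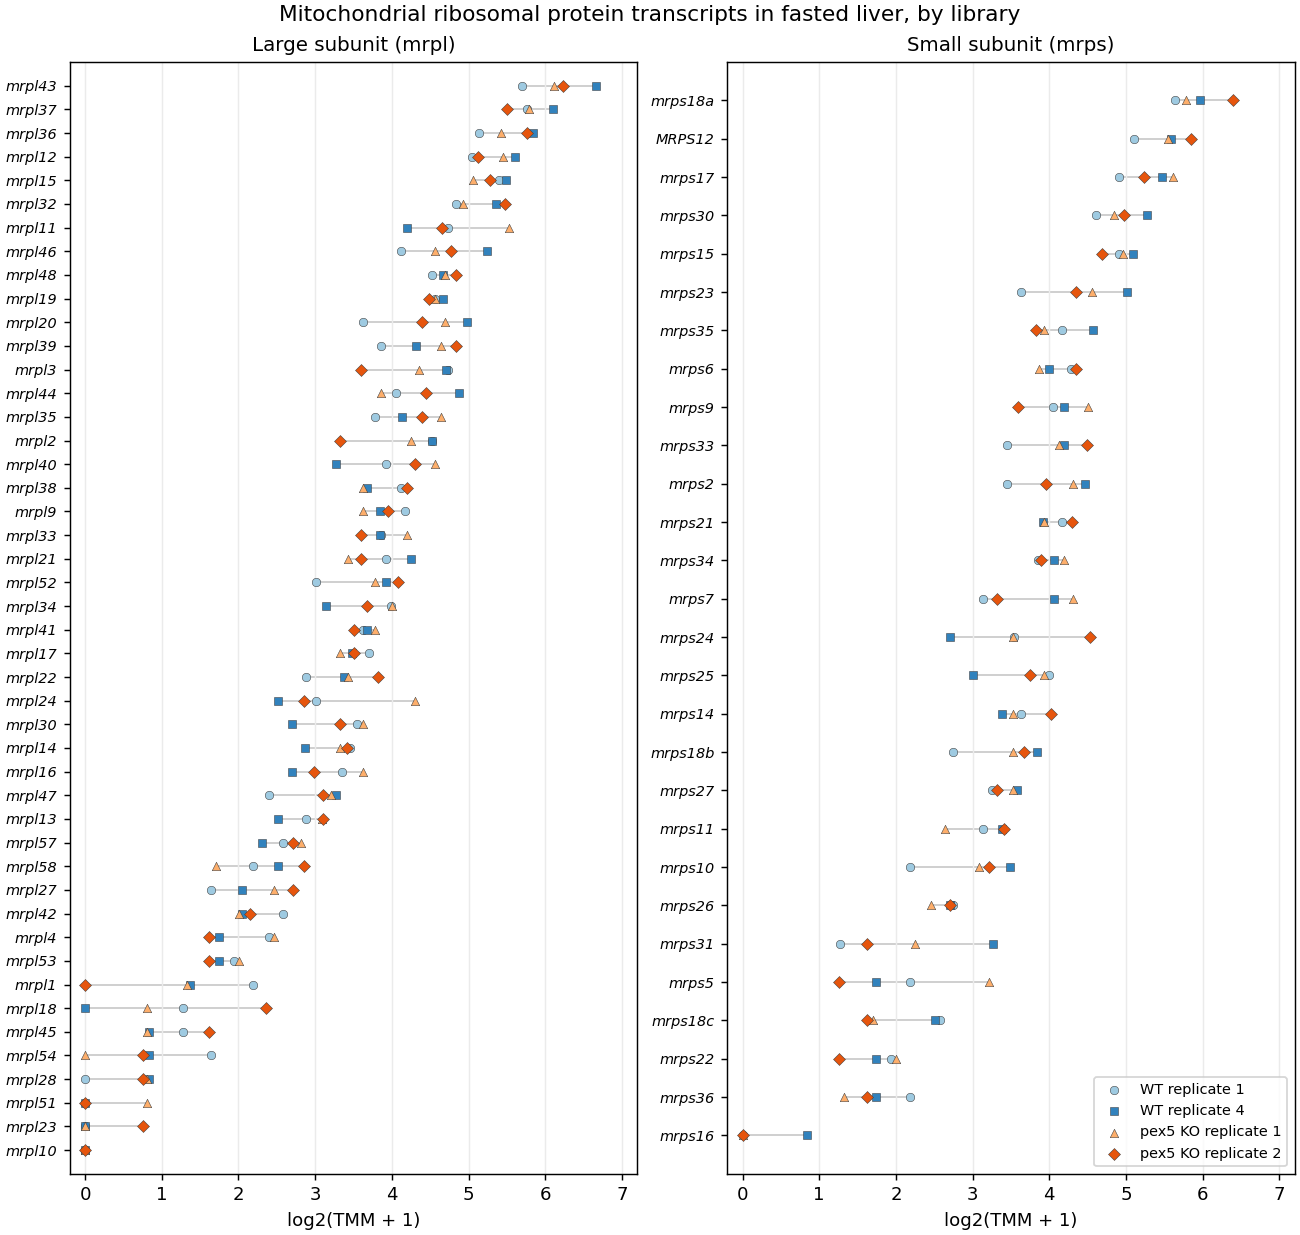
Level of each of the 74 genes in log2(TMM + 1) in the 4 libraries, large subunit on the left and small subunit on the right, ordered by mean level. Each symbol is 1 library and the grey line spans the 4 values; mrpl43 and mrps18a lead their subunits, mrpl10 lies at 0 in all 4 libraries, and for most genes the blue WT and the orange pex5 KO symbols overlap.

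The 5 highest genes held 24.3% of the family's TMM and the 10 highest 40.1%, with 6 of these 10 from the large and 4 from the small subunit. The highest was mrpl43, a mitochondria-specific protein of the large subunit, at 51.1 TMM in WT replicate 1, 100.5 TMM in WT replicate 4, 68.4 TMM in pex5 KO replicate 1 and 74.0 TMM in pex5 KO replicate 2. Its WT libraries were the lowest and the highest of the 4, and the pex5 KO minus WT difference was -0.01 on the log2(TMM + 1) scale (SE 0.39). The next was mrps18a at 49.0, 61.3, 54.1 and 83.0 TMM in the same order of libraries, with pex5 KO replicate 2 above the rest and pex5 KO replicate 1 between the WT libraries. The mitochondria-specific large subunit protein mrpl37 followed at 53.2, 67.5, 54.1 and 44.2 TMM, with pex5 KO replicate 1 inside the WT range and pex5 KO replicate 2 below it. For mrpl36, the counterpart of the smallest protein of the bacterial large subunit, the values were 34.1, 56.5, 42.1 and 53.2 TMM, so both pex5 KO libraries lay inside the WT range.

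Other abundant transcripts encode conserved working parts of the ribosome. MRPS12, whose symbol is in capitals in the deposited table, is the counterpart of the bacterial S12 protein at the decoding centre, and it was measured at 33.4, 47.1, 45.8 and 56.7 TMM in WT replicates 1 and 4 and pex5 KO replicates 1 and 2. Only pex5 KO replicate 2 exceeded WT replicate 4, and the difference was 0.35 (SE 0.31, log2 scale). The stalk protein mrpl12, which in bacteria recruits the translation factors, stood at 31.9, 47.9, 42.8 and 33.9 TMM, with both pex5 KO libraries inside the WT range and a difference of -0.04 (SE 0.33). The small subunit rRNA-binding proteins mrps17 and mrps15 had 29.1, 43.2, 48.1 and 36.6 TMM and 29.1, 33.0, 30.1 and 24.9 TMM. Both overlapped between genotypes, as did mrps30 at 23.4, 37.7, 27.8 and 30.4 TMM.

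At the other end, 9 genes had fewer than 10 reads in all 4 libraries together and 8 had no read in at least 1 library. No read was found for mrpl10, whose bacterial counterpart anchors the stalk. At 3 reads this allows a level of up to 2.07 to 2.36 TMM in a library, if its transcript was captured like those of other genes. A single read in all 4 libraries was found for mrpl51, mrpl23 and mrps16, and 3 reads for mrpl28, so at this depth no difference between genotypes was detectable for them. The misnamed mrps36 was read 5 times in WT replicate 1, 3 times in WT replicate 4, 2 times in pex5 KO replicate 1 and 3 times in pex5 KO replicate 2, which is 3.55, 2.36, 1.503 and 2.07 TMM. Its ratio of pex5 KO to WT reads, scaled by the depth of the libraries as are all read ratios below, was 0.604. The 95% counting interval was 0.155 to 2.09.

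Of the 74 genes, 43 (58.1%) reached the mean of 10 TMM required for a test, against 20.4% of all genes listed. These 43 comprised 25 of the large and 18 of the small subunit and rested on a median of 96 reads over the 4 libraries (56 to 398). The other 31 had means below 10 TMM and entered no test, and they are described by their reads. limma with Benjamini-Hochberg adjustment over the 3349 genes called 0 of the 43 at an adjusted p under 0.05, and 0% of all genes tested were called. At an unadjusted p under 0.05 there were 0 of the 43 and 121 of all genes (3.61%), and the lowest unadjusted p among the 43 was 0.0965, with an adjusted p of 1.00 in limma. An exact permutation test, two-sided and over 2 libraries against 2, has 0.333 as its smallest p.

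A higher mean log2(TMM + 1) in pex5 KO was found for 25 of the 43 genes, near the 50.5% of all genes tested that were higher. The median difference was 0.08, against 0.00 for all genes tested. Both values depended on the scale: when every library was rescaled to the same total over nuclear genes, the median of all genes moved by -0.13, that of the 43 genes became -0.04 and 19 of the 43 were higher, while the distance of the 43 genes from the median of all genes stayed at 0.08. Without WT replicate 1 the median of the 43 genes was -0.07 and without WT replicate 4 it was 0.24.

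Both pex5 KO libraries lay above both WT libraries for 4 of the 43 genes, against 16.9% of all genes tested, and below both for 6, against 13.5%. The first count was under the background share and the second close to it. Rescaling every library to the same total or the same nuclear total gave 3 above and 9 below in each case, against 13% and 19.3% of all genes tested in the former and 11.2% and 22.2% in the latter. All 4 higher genes and 5 of the 6 lower genes belong to the large subunit.

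The 4 genes above both WT libraries were mrpl40, mrpl39, mrpl35 and mrpl48. mrpl40, a mitochondria-specific protein of the central protuberance, the knob of the large subunit that faces the small subunit, had 14.2 and 8.64 TMM in WT replicates 1 and 4 and 22.5 and 18.7 TMM in pex5 KO replicates 1 and 2. Its difference of 0.83 (SE 0.41, log2 scale) had an unadjusted p of 0.0965 and an adjusted p of 1.00 in limma, and the pooled reads gave a pex5 KO to WT ratio of 1.78 with a 95% counting interval of 1.13 to 2.85. For the mitochondria-specific mrpl39, the values were 13.5 and 18.8 TMM in WT and 24.1 and 27.7 TMM in pex5 KO, with a difference of 0.66 (SE 0.33), an unadjusted p of 0.0971 and an adjusted p of 1.00 in limma. The bacterial-type mrpl35 had 12.8 and 16.5 TMM in WT and 24.05 and 20.05 TMM in pex5 KO (difference 0.56, SE 0.33). In each of these 3 genes the nearest WT and pex5 KO libraries were closer than the WT libraries were to each other. The central protuberance protein mrpl48 was separated by less than 1 read's worth of TMM, at 21.998 and 24.3 TMM in WT and 24.8 and 27.7 TMM in pex5 KO (difference 0.17, SE 0.28).

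The 6 genes below both WT libraries were mrpl3, mrpl2, mrpl21, mrps35, mrpl15 and mrpl19. The bacterial relatives of mrpl3 and mrpl2 reach towards the site where peptide bonds form. mrpl3 had 25.5 and 25.1 TMM in WT and 19.5 and 11.1 TMM in pex5 KO, with a difference of -0.74 (SE 0.38), an unadjusted p of 0.106 and an adjusted p of 1.00 in limma, and its read ratio was 0.597 with a counting interval of 0.396 to 0.889. mrpl2 had 21.998 and 21.988 TMM in WT and 18.04 and 8.99 TMM in pex5 KO, with a difference of -0.74 (SE 0.43) and a read ratio of 0.606 (0.390 to 0.929). In both genes the WT libraries were nearly equal and the pex5 KO libraries differed from each other by 0.77 and 0.93 on the log2 scale. mrpl21 had 14.2 and 18.1 TMM in WT and 9.77 and 11.1 TMM in pex5 KO (difference -0.58, SE 0.41). The mitochondria-specific small subunit protein mrps35 had 17.0 and 22.8 TMM in WT and 14.3 and 13.1 TMM in pex5 KO (difference -0.49, SE 0.35). mrpl15, at 41.2 and 44.0 against 32.3 and 38.0 TMM, and mrpl19, at 22.7 and 24.3 against 22.5 and 21.4 TMM, had smaller differences on the log2 scale (-0.27 and -0.09), and mrpl19 was separated by less than the worth of a single read.

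The 24 tested genes that are not among those named above by level, separation or p all overlapped between genotypes, because the naming rule took every tested gene without overlap. Their means ran from 10.3 to 35.1 TMM and their differences from -0.31 to 0.91, with 17 of the 24 higher in pex5 KO. They include mrpl46, the neighbour of mrps11 on chromosome 7, at 16.3 and 36.9 TMM in WT and 22.5 and 26.3 TMM in pex5 KO, where the WT libraries again enclosed the others. Below the filter, the 31 genes held 734 reads in all 4 libraries together and reached at most 9.75 TMM on average. Both pex5 KO libraries lay above both WT libraries for mrpl22, mrpl13, mrpl57 and mrpl27, and below both for mrps18c, mrpl1, mrpl54 and mrps36. These are 4 and 4 of the 30 with a read, against 8.73% and 12.2% of all genes with a read and a mean below 10 TMM. At so few reads such an order can turn on a single read. The widest read support among these 8 was that of mrpl22, with 9 and 12 reads in WT and 13 and 19 in pex5 KO and a ratio of 1.47 (95% counting interval 0.823 to 2.69), so that a ratio of 1 lay inside the counting error.

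The spread within a genotype was larger than the difference between genotypes for most of these genes. The size of the difference had a median of 0.45 for the pair of WT libraries and 0.30 for the pair of pex5 KO libraries, against 0.24 between genotype means, which average 2 libraries each. The genotype difference was smaller than the difference between the WT libraries in 30 of the 43 genes and exceeded both within-genotype differences in 7. Averaging by itself makes a difference of means smaller than that of a single pair. No share of all genes is set beside these counts, so they are not read as particular to this family. The gene with the largest difference, mrps24, named here after its values were seen, also had a wide spread within genotypes. It had 10.6 and 5.50 TMM in WT and 10.5 and 22.1 TMM in pex5 KO. Its difference of 0.91 (SE 0.63, unadjusted p 0.207, adjusted p 1.00 in limma) thus came with overlapping genotypes. Counting error was of the same order, since the 95% counting interval of the read ratio spanned a median of 2.38-fold from its lower to its upper bound. It lay above 1 for 5 of the 43 genes (mrps18a, mrpl11, mrpl39, mrpl40 and mrps24, of which mrpl11 was named after its values were seen) and below 1 for 2 (mrpl3 and mrpl2), against 17.3% and 16.5% of all genes tested. All genes tested include genes with far more reads, whose intervals are narrower. The counts are therefore not read as particular to this family.

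The library that stood lowest was most often WT replicate 1, which had the lowest of the 4 values in 20 of the 43 genes (46.5%, against 28.8% of all genes tested), while WT replicate 4 had the highest value in 16 (37.2% against 29.3%). The pex5 KO libraries were highest in 10 and 12 genes and lowest in 7 and 9. The levels of the 43 genes were correlated between libraries, as a description across genes of unequal abundance, with Pearson's r from 0.75 between WT replicate 1 and pex5 KO replicate 2 to 0.82 between WT replicate 4 and pex5 KO replicate 1. The pair of WT libraries gave 0.75 and the pair of pex5 KO libraries 0.81. By rank, Spearman's rho ran from 0.63 (WT replicate 1 and pex5 KO replicate 2) to 0.81 (WT replicate 4 and pex5 KO replicate 1), and single genes moved far, such as mrps24 at ranks 38, 50, 42 and 16 of 74. In neither measure were libraries of the same genotype consistently the closest.

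Taking the subunits apart, the 46 genes of the large subunit summed to 632 TMM in WT replicate 1, 778 TMM in WT replicate 4, 734 TMM in pex5 KO replicate 1 and 709 TMM in pex5 KO replicate 2. The 28 genes of the small subunit summed to 369, 485, 456 and 475 TMM in the same order. In both subunits WT replicate 1 was the lowest and WT replicate 4 the highest, with the pex5 KO libraries between them. The ratio of pex5 KO to WT reads was 1.03 for the large subunit (95% counting interval 0.964 to 1.095) and 1.098 for the small subunit (1.01 to 1.19), where the interval leaves out the spread between libraries. The large to small ratio of summed TMM was 1.71 and 1.60 in WT and 1.61 and 1.49 in pex5 KO, so the genotypes overlapped in the order of the libraries, with WT replicate 1 highest and pex5 KO replicate 2 lowest.

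**Figure D2:**
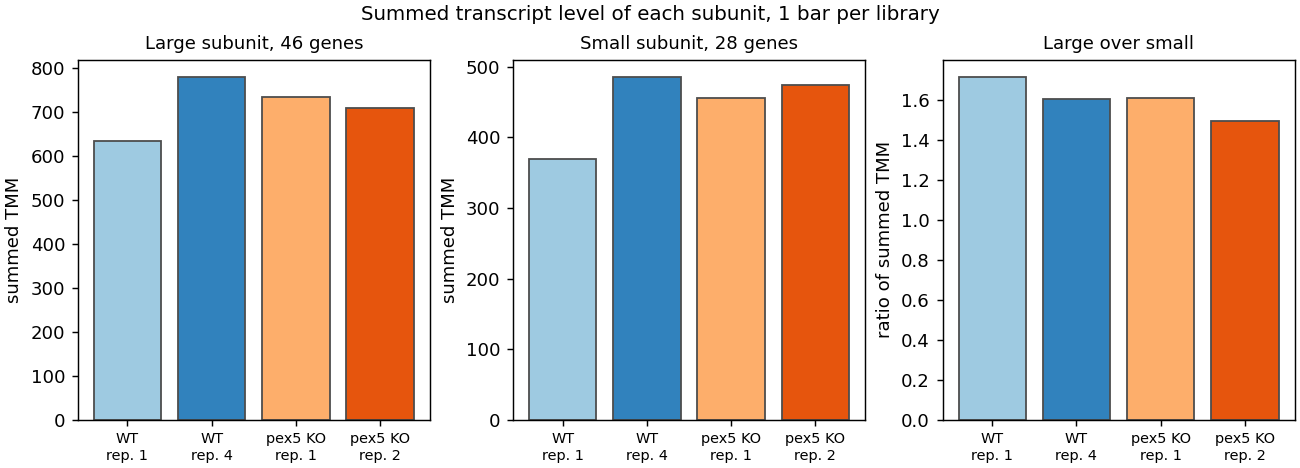
Summed TMM of the 46 large subunit genes (left) and the 28 small subunit genes (middle) and the ratio of the sums (right), with 1 bar per library and no error bar. WT replicate 1 has the lowest and WT replicate 4 the highest sum in both subunits, and the ratio runs from 1.49 in pex5 KO replicate 2 to 1.71 in WT replicate 1.

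Gene by gene, 12 of the 25 large subunit genes and 13 of the 18 small subunit genes had a higher mean in pex5 KO. The median difference was -0.01 for the large and 0.19 for the small subunit, a distance of -0.20 that was not tested because the genes are not replicates. The distance was -0.20 under both other scalings, with medians of -0.13 and 0.07 when nuclear totals were equalized, and it was also -0.20 when mrps18a and mrps30 were counted with the large subunit and mrps36 was left out. Without WT replicate 1 the small subunit median was -0.03 and without WT replicate 4 it was 0.37, and with all genes that had a read included the distance was 0.03. Of the 18 tested small subunit genes, 0 lay above both WT libraries and only mrps35 lay below both, against the 16.9% and 13.5% of all genes.

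For the groups by origin, genes were placed by the human structures, so that mrps18a and mrps30 count with the large subunit and the tested genes number 27 of the large and 16 of the small subunit. Within the large subunit, the 15 tested proteins with a bacterial counterpart comprised 7 that were higher and 8 that were lower in pex5 KO, with a median of -0.04. Of these, 1 (mrpl35) lay above both WT libraries and 5 (mrpl3, mrpl2, mrpl21, mrpl15 and mrpl19) below both, against 16.9% and 13.5% of all genes tested. The 12 tested proteins counted as mitochondria-specific, mrps18a and mrps30 among them, split 6 and 6 with a median of 0.00. Of the 12, 3 (mrpl40, mrpl39 and mrpl48) lay above both WT libraries and 0 below, beside the same shares of all genes. These counts are a description of few genes and were not tested against each other. The sums per genotype overlapped in both groups. These sums cover all listed genes, including those below the filter. The 29 with a bacterial counterpart summed to 392 and 440 TMM in WT and 451 and 406 TMM in pex5 KO. The 19 counted as mitochondria-specific summed to 313 and 437 TMM in WT and 365 and 416 TMM in pex5 KO.

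In the small subunit, 7 of the 10 tested proteins with a bacterial counterpart were higher in pex5 KO (median 0.19) and 0 were without overlap, against 16.9% above and 13.5% below among all genes tested. The 6 tested proteins counted as mitochondria-specific, mrps18b among them, had 5 higher and a median of 0.22, and mrps35 was the exception. The 15 listed genes with a bacterial counterpart, tested or not, summed to 202.2 and 248.9 TMM in WT and 255.5 and 249.5 TMM in pex5 KO. These sums did not overlap, but WT replicate 4 and pex5 KO replicate 2 were nearly equal. The 10 listed genes counted as mitochondria-specific summed to 90.8 and 135.1 TMM in WT and 117.2 and 109.9 TMM in pex5 KO, which overlapped. For the central protuberance, 5 of 9 listed genes were tested, 4 were higher and 2 (mrpl40 and mrpl48) lay above both WT libraries (16.9% of all genes tested). The sums of all 9, at 88.0 and 107.6 TMM in WT and 107.5 and 127.2 TMM in pex5 KO, overlapped. The 7 listed genes of the polypeptide exit site, of which 2 were tested, summed to 48.3 and 70.7 TMM in WT. In pex5 KO they summed to 75.2 and 78.1 TMM, without overlap. The distance from 70.7 to 75.2 TMM was smaller than that between the WT libraries. Of the 2 tested genes, 1 was higher and 1 lower in pex5 KO. The 5 listed genes of the stalk and its base summed to 62.4 and 68.3 TMM in WT and 90.9 and 60.8 TMM in pex5 KO, which overlapped. Of these 5, 2 were tested, 1 higher and 1 lower. No sum was tested.

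The family was set beside other gene groups that depend on the same organelle or build the other ribosome of the cell, all in the same fit. Most nuclear-encoded subunits of oxidative phosphorylation (OXPHOS) join proteins that the mitoribosome makes, but those of complex II (sdha, sdhb and sdhdb among the tested genes) do not. The OXPHOS subunits had a higher mean in pex5 KO for 61 of 68 tested genes with a median difference of 0.35. Of these, 38 lay above both WT libraries and 0 below, against 16.9% and 13.5% of all genes tested. Cytosolic ribosomal proteins had a higher mean for 43 of 77 tested genes with a median of 0.02, and 6 lay above and 8 below both WT libraries, beside the same shares of all genes. The lists differ in depth, with sums per library of 1001 to 1264 TMM for the 74 mitochondrial ribosomal protein genes and 12229.5 to 16449.7 TMM for the 84 OXPHOS genes. Their counts of genes without overlap therefore carry unequal counting error. The mitochondrial ribosomal proteins, with 25 of 43 and a median of 0.08, were thus nearer to the cytosolic ribosomal proteins than to the OXPHOS subunits in both the count and the median, a description for which no test between the lists was made. The subunits differed in this: the large subunit (12 of 25, median -0.01) was nearer to the cytosolic list. The small subunit (13 of 18, median 0.19) lay between the cytosolic and the OXPHOS lists. This placement holds for the main setting only. Without WT replicate 1 the small subunit median was -0.03, and with no filter the medians were 0.11 for the large and 0.08 for the small subunit.

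**Figure D3:**
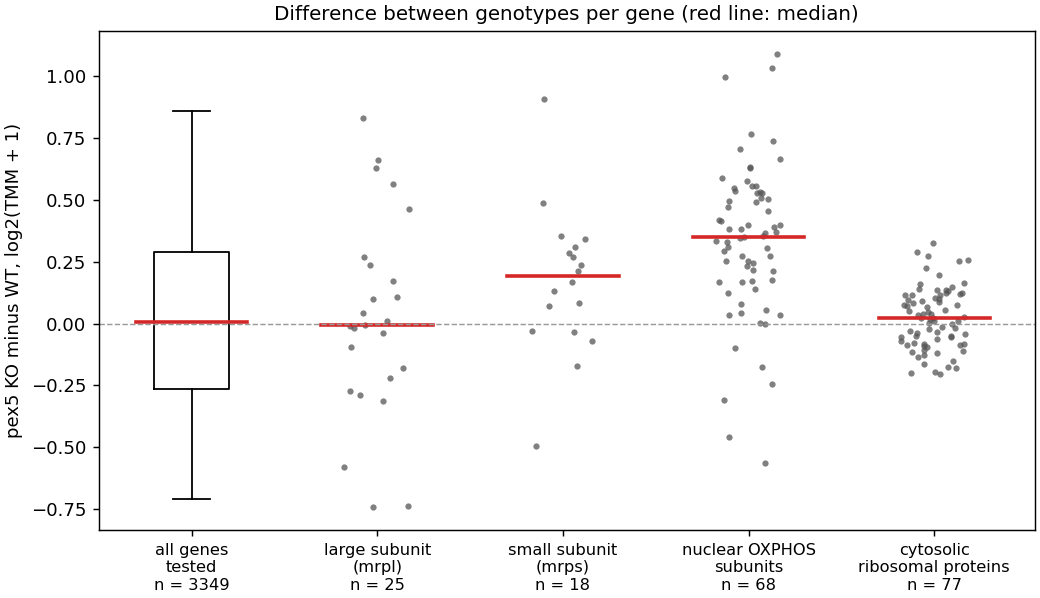
Difference between genotypes (mean pex5 KO minus mean WT, log2(TMM + 1)) for every tested gene of 4 groups, 1 point per gene, with the median as a red line, beside a box of all 3349 genes tested (quartiles, whiskers at percentiles 5 and 95). The medians are -0.01 for the large subunit, 0.19 for the small subunit, 0.35 for the OXPHOS subunits and 0.02 for the cytosolic ribosomal proteins.

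The pairs of libraries showed how each group differed within and between genotypes. For the mitochondrial ribosomal proteins, the median difference was 0.32 between WT replicate 4 and WT replicate 1, and the pex5 KO libraries stood 0.17 and 0.18 above WT replicate 1 but -0.13 and -0.17 relative to WT replicate 4. The direction of the difference therefore changed with the WT library used. For the OXPHOS subunits the median was 0.17 between the WT libraries, and the pex5 KO libraries stood 0.41 and 0.40 above WT replicate 1 and 0.27 and 0.27 above WT replicate 4, so the direction was the same in every pair of a pex5 KO and a WT library. The cytosolic ribosomal proteins behaved like the mitochondrial ones, with 0.25 between the WT libraries, 0.13 and 0.12 against WT replicate 1 and -0.08 and -0.13 against WT replicate 4. Summed skeletal muscle and exocrine pancreas markers also differed within WT, where replicate 4 stood 7.28-fold and 2.57-fold above replicate 1, and their part in the distance between the WT libraries was not tested.

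**Figure D4:**
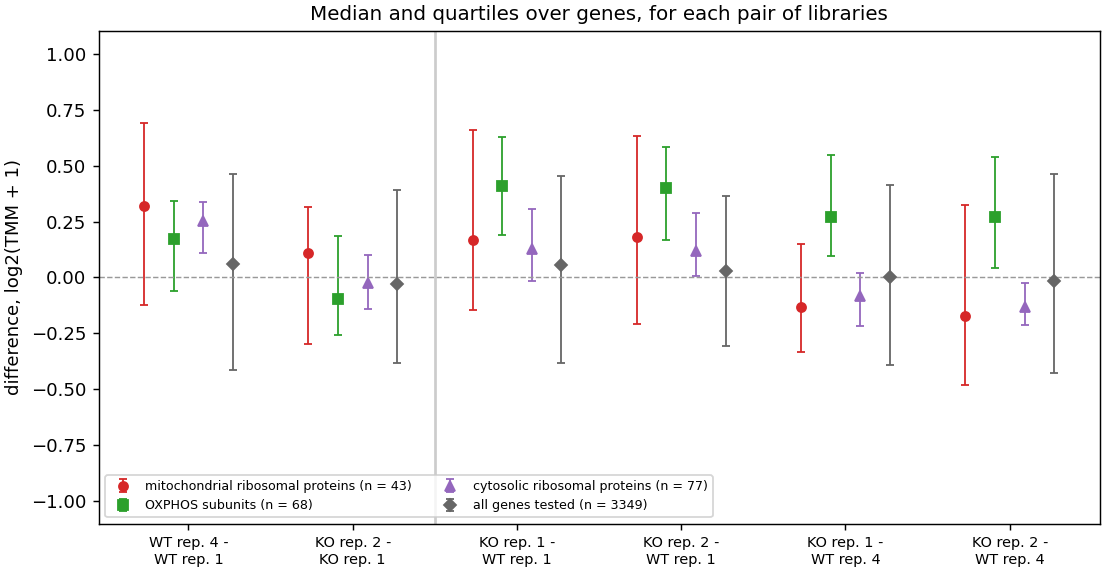
Median difference over genes, with quartiles as bars, for each of the 6 pairs of libraries, with pairs of the same genotype left of the grey line and pairs of a pex5 KO and a WT library right of it. The mitochondrial ribosomal proteins (red) lie above 0 against WT replicate 1 (0.17 and 0.18) and below 0 against WT replicate 4 (-0.13 and -0.17), and the OXPHOS subunits (green) lie above 0 in all 4 pairs of a pex5 KO and a WT library.

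The partners of these proteins gave few testable values. Of 6 further mitoribosomal proteins sought under other names, 5 were listed and 3 tested, and all 3 overlapped between genotypes. dap3, a GTP-binding protein of the small subunit, had 9.93 and 15.7 TMM in WT and 7.52 and 11.8 TMM in pex5 KO. gadd45gip1, a protein of the large subunit, had 27.0 and 44.8 TMM against 42.1 and 40.1 TMM. aurkaip1, of the small subunit, had 16.3 and 18.1 TMM against 6.01 and 19.4 TMM. Of 12 genes listed as mitochondrial translation factors, among them the membrane insertase oxa1l, 2 were tested (tufm and gfm1, both overlapping between genotypes). Of 19 factors of mitoribosome assembly and rRNA modification 1 was tested (mterf3, also overlapping). A further 16 genes make aminoacyl-tRNA in mitochondria, namely synthetases and the amidotransferase subunits gatb, gatc and qrsl1, and 0 of them reached the filter. The elongation factor tufm, at 67.4 and 71.5 TMM in WT and 79.7 and 57.4 TMM in pex5 KO (difference -0.04, SE 0.29), was as abundant as the highest of the ribosomal protein genes. The 16 aminoacyl-tRNA genes together reached only 19.2 to 33.8 TMM per library, too low for a comparison of single genes at this depth. All 4 tested genes of mitochondrial transcription and RNA handling, of 10 listed, had a higher mean in pex5 KO (median 0.25). Of them, hsd17b10 and tfb2m lay above both WT libraries, as did 16.9% of all genes tested. The other tested genes, slirp and tfam, overlapped between genotypes, with differences of 0.004 and 0.13. tfb2m, a factor for starting mitochondrial transcription, was at 9.22 and 12.6 TMM in WT and 15.0 and 13.8 TMM in pex5 KO (difference 0.39, SE 0.43).

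The templates of the mitoribosome, the 13 mRNAs of the mitochondrial genome, had a median difference of -0.02, with 6 higher and 7 lower in pex5 KO. Of the 13, 2 (mt-nd5 and mt-atp6) lay above both WT libraries and 1 below, against 16.9% and 13.5% of all genes tested. The largest difference without overlap was that of mt-nd5, a subunit of complex I, at 568 and 477 TMM in WT and 846 and 671 TMM in pex5 KO (0.53, SE 0.24, unadjusted p 0.0790, adjusted p 1.00 in limma). The lowest unadjusted p of the 13 was that of mt-atp6, given here after its values were seen (0.0390 in limma, not called after adjustment). It had 11708 and 11744 TMM in WT and 15760.5 and 14205.4 TMM in pex5 KO (0.35, SE 0.13). The only mRNA below both WT libraries was mt-co2, a subunit of cytochrome oxidase, at 12112 and 12854 TMM against 11549 and 11657 TMM (-0.11, SE 0.12).

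The table lists 2 rRNAs of the mitochondrial genome, which are the RNA core of the mitoribosome. The gene ENSDARG00000080337 took most of the mitochondrial reads, with 275009 and 271904 TMM in WT and 293353 and 257129 TMM in pex5 KO, and its WT libraries lay inside the pex5 KO range (difference 0.01, SE 0.08). The gene ENSDARG00000082753 had 6787 and 2907 TMM in WT and 11123 and 8187 TMM in pex5 KO, without overlap and with a difference of 1.103 (SE 0.43, unadjusted p 0.0490, adjusted p 1.00 in limma). Since CEL-Seq2 primes at poly(A), the level of an rRNA read in this way depends on its polyadenylation or on priming at internal A stretches, which was not tested.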

How the data were processed

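RNA from 2 fasted WT and 2 fasted pex5 KO liver samples was sequenced at the 3′ end with CEL-Seq2. The authors extracted UMIs with UMI-tools 1.1.1, trimmed reads with Trim Galore 0.6.7, mapped them to GRCz11 with HISAT2 2.2.1, counted them per gene with featureCounts 2.0.1, removed UMI duplicates, scaled the counts with TMM and deposited log2(TMM + 1) values. The strand setting of the counting is not given in the sources used here.

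The logarithm was undone and each library divided by its step to recover reads (tolerance 0.1 read). limma 3.58.1 in R 4.3.3 (lmFit, eBayes with trend, genotype only) was run on log2(TMM + 1) for the 3349 genes whose mean reached 10 TMM, two-sided, with p-values adjusted by Benjamini-Hochberg and called under 0.05. The code was first run on simulated counts with a spread that was chosen, not estimated from these libraries. That run checks the code and does not measure what the fit can detect in these data. The log2(TMM + 1) scale, with a pseudocount of 1, understates changes of low genes. Ratios of pex5 KO to WT reads and their bounds were scaled by the TMM-adjusted depth of the libraries, so they differ from plain ratios of the reads. Counting intervals (95%, exact) treat deduplicated reads as independent. Tables were made in Python 3.11.15 (pandas 2.3.3, numpy 2.4.6), intervals with scipy 1.17.1 and plots with matplotlib 3.10.9.

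The members and gene lists were chosen with earlier results of these data known. Genes were named by rule: the 5 highest of each subunit, up to 6 per direction without overlap, the 3 lowest p, the members whose name and place differ with the stalk and decoding centre proteins, up to 5 with missing reads, and up to 2 pathway genes per direction. Alternatives covered the pseudocount, filter, scaling, variance trend, voom weights on recovered reads, subunit assignment and each library left out, and, chosen after seeing the data, MRPS12 left out. No sequence is shown because no sequence was given with these data, and each p-value rests on 4 libraries.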

Additional observations from a re-analysis of the deposited data

How the results depend on the processing

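limma called 0 of the mitochondrial ribosomal protein genes in every alternative fit on all 4 libraries. In the same fits it also called 0 of all genes tested, so the count is not particular to this family. These fits used pseudocounts 0.5 and 5, no filter, a mean of at least 20 TMM, both rescalings, no variance trend and voom weights. For fits with a library left out, no calls are given. The counts above and below both WT libraries became 8 and 10 with no filter and 2 and 3 with a mean of at least 20 TMM, because more and fewer genes were counted, and 3 and 9 under both rescalings. With 1 library left out they ranged from 10 to 21 above and from 9 to 18 below, since 3 libraries separate more easily by construction. Among these settings, the share of all genes is given above for the rescalings only. The other counts have no such share beside them and are not read as a result about these genes. The median difference was -0.044 with equal nuclear totals and ranged from -0.071 (without WT replicate 1) to 0.24 (without WT replicate 4) with a library left out. The distance of the large from the small subunit was 0.030 with no filter and ranged from -0.29 to -0.084 with a library left out. Of the 19 named genes tested, 6 changed sign: with equal nuclear totals mrpl36 was at -0.025, and with a library left out the ranges were -0.49 to 0.47 for mrpl43, -0.017 to 0.59 for mrps18a, -0.25 to 0.46 for mrpl36, -0.040 to 0.51 for mrps17, -0.32 to 0.25 for mrpl12 and -0.36 to 0.30 for mrps30. The cause was not tested. A lone library is assumed to vary like the other genotype. Leaving out MRPS12, chosen after seeing the data, left both counts of genes without overlap as they were among the 42 genes then tested. No paired analysis was possible because the genotypes share only 1 replicate number. Depth limits 31 of the 74 genes, which had means below 10 TMM.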
